A study of Mus musculus with 6 samples.

Results

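The numbered SLC25 genes, which mostly encode carrier proteins of the inner mitochondrial membrane, were followed in inguinal white adipose tissue, the fat under the skin of the groin. They were chosen by name and type, as protein-coding genes called Slc25a followed by digits, which gave 47 of the 57180 genes listed, and 38 of the 47 were tested because their average over the 6 libraries reached 1 TPM. The tissue came from male wild-type mice fed for 12 weeks either a high-fat diet supplemented with 0.5% hesperidin (HEP, 3 samples) or the high-fat diet alone (HFD, 3 samples). Hesperidin is a flavonoid found in citrus fruit. All the mice in both groups therefore ate the high-fat diet, and the labels used here give no strain, age or starting weight and do not say whether a sample was 1 animal. The p-values thus measure the spread between these samples, which may be partly technical. The control-diet group that the series also describes was not analysed here. RNA was sequenced and expressed by the authors as TPM, a transcript share that corrects for transcript length and sets each library to the same total, so levels of different genes can be set side by side. Read depth is unknown, since TPM keeps none. Between 22877 and 25271 genes per library had a value above 0 in HEP, and between 22599 and 23881 in HFD.

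SLC25 carriers move metabolites between the cytosol and the mitochondrial matrix. They share a fold of repeated pairs of membrane helices, and most exchange a substrate on one side for another on the other side. In white fat cells, export of citrate from the matrix by Slc25a1 supplies acetyl units for fatty acid synthesis in the cytosol, malate passes through the dicarboxylate carrier Slc25a10, and acylcarnitines enter for oxidation through Slc25a20. ADP/ATP exchange through Slc25a4 and Slc25a5 and phosphate import through Slc25a3 serve ATP synthesis in nearly every cell. The uncoupling proteins of brown fat belong to the same superfamily but carry the name Ucp and are therefore not among the 47.

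For 5 of the 38 tested carriers the 3 HEP values all lay on one side of the 3 HFD values, as they did for 5.46% of all tested genes. Sequence upstream of the gene start is shown for 3 of these 5, and not for Slc25a35 and Slc25a25. None of the 5 passed the adjusted test described below. The letters are the 250 bases before the gene start, in the direction of transcription, from RefSeq on GRCm38.p6. Slc25a1 lies at chr16:17928220-17928469 on the minus strand, Slc25a10 at chr11:120491587-120491836 on the plus strand and Slc25a12 at chr2:71367756-71368005 on the minus strand. Capitals mark matches to 3 motifs searched on both strands, the CCAAT box (CCAAT), the palindromic E-box (CACGTG) and a sterol element (TCACNCCAC).
Slc25a1: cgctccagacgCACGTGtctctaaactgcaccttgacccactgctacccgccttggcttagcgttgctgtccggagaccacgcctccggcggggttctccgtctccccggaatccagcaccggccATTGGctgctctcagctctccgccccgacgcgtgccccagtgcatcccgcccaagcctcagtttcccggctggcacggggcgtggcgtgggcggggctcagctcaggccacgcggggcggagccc
Slc25a10: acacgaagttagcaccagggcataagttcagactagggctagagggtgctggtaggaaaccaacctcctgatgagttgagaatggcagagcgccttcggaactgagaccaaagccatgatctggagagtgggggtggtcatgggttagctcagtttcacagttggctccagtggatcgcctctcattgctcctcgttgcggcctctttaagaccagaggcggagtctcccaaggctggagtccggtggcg
Slc25a12: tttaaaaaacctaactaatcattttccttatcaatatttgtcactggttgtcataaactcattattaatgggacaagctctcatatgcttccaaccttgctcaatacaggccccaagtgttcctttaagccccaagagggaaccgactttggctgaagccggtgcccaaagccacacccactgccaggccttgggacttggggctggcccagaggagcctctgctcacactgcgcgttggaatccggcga
The Slc25a1 window held 1 E-box, 239 to 234 bases before the gene start, and 1 CCAAT box read on the opposite strand, 125 to 121 bases before it. The windows of Slc25a10 and Slc25a12 held none of the 3 motifs, which says only that these letters are not in these windows. Of the 47 carriers 36 had an entry, some with several gene starts. Among all 32851 windows of the same length 6.02% held the E-box, 33.8% the CCAAT box and 1.05% the sterol element, and among the 46 windows of carriers 8, 21 and 1 did (17.4%, 45.7% and 2.17%). A match is a description of the letters and no evidence of binding.

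The libraries differed in transcripts that mark other cell types, and each TPM below is a value of the whole tissue. The summed TPM of 8 B cell markers was 1167, 6.64 and 1265 in HEP replicates 1 to 3, against 6.30, 7.15 and 581.5 in HFD replicates 1 to 3, so HEP replicates 1 and 3 and HFD replicate 3 stood apart as rich in lymphocyte transcripts. The 12 skeletal muscle markers summed to 1730, 15190 and 53.81 TPM in HEP and to 199.6, 737.1 and 85.2 TPM in HFD, and the 8 liver markers to 12.42, 2619 and 89.97 TPM in HEP and to 1713, 55.8 and 109.8 TPM in HFD. Defining fat cell genes were high throughout. The 12 adipocyte markers summed to 31960, 51450 and 29710 TPM in HEP, against 50230, 52160 and 40220 TPM in HFD, with none at 0, and all 12 had a lower mean in HEP by a median of -0.41 (log2). In bulk tissue fewer cells of a type and less RNA per cell cannot be told apart.

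As a family the carriers were expressed at similar levels on the 2 diets. Their summed TPM was 1688, 1826 and 1515 in HEP replicates 1 to 3, against 1738, 1788 and 1797 in HFD replicates 1 to 3, so the groups overlapped and HEP replicate 3 was the lowest library. Individual carriers spanned more than 2 orders of magnitude per transcript length, with 4 members at a mean of at least 100 TPM, 14 between 20 and 100, 16 between 5 and 20, 4 between 1 and 5 and 9 under 1. The 10 most abundant carriers made up between 72.1% and 78.4% of the family in HEP and between 76.3% and 77.9% in HFD.

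**Figure D1:**
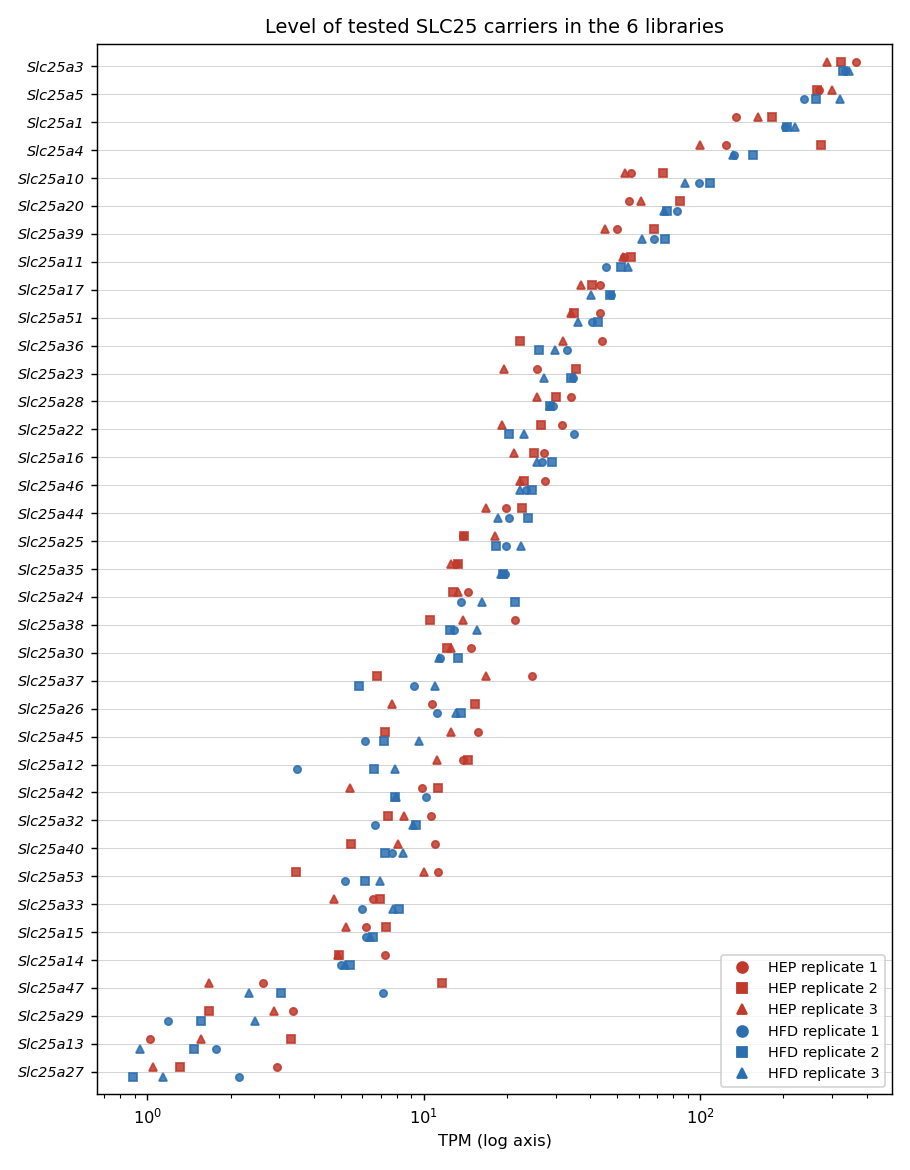
Level of 37 of the tested carriers in TPM (log axis) in every library, ordered by mean, with HEP in red above HFD in blue and 1 marker shape per replicate number. Slc25a3, Slc25a5, Slc25a1 and Slc25a4 sit at the top, and the spread between libraries is widest for Slc25a47, Slc25a37 and Slc25a12.

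With limma on log2(TPM + 1), 0 of the 38 tested carriers differed between HEP and HFD at an adjusted p under 0.05, where 0% of all 15446 tested genes did, and the smallest adjusted p among the carriers was 0.879. At an unadjusted limma p under 0.05, 3 carriers were lower in HEP (7.89%, against 1.13% of all tested genes) and 1 was higher (2.63%, against 0.68%), together 4 of 38, where 1.81% of all tested genes were in either direction. The 3 HEP values lay entirely below the 3 HFD values for 4 carriers (10.5%, against 3.58% of all tested genes) and entirely above for 1 (2.63%, against 1.88%). These counts are small and describe single genes, not the family. The median log2 fold change of the carriers was 0.01, beside 0.07 for all tested genes, with 19 lower and 19 higher, where 41.4% of all tested genes were lower. Counts of higher and lower genes go by the sign of the log2 fold change, which can differ from that of the mean TPM. That split depends on how libraries are scaled: 23 of 38 carriers were lower with median-of-ratios scaling, 28 of 38 with quantile normalization and 2 of 38 when each library was divided by the geometric mean of its adipocyte markers. In the last of these the median of all tested genes was 0.43 and that of the carriers 0.37. The median standard error of a carrier's log2 fold change was 0.21.

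**Figure D2:**
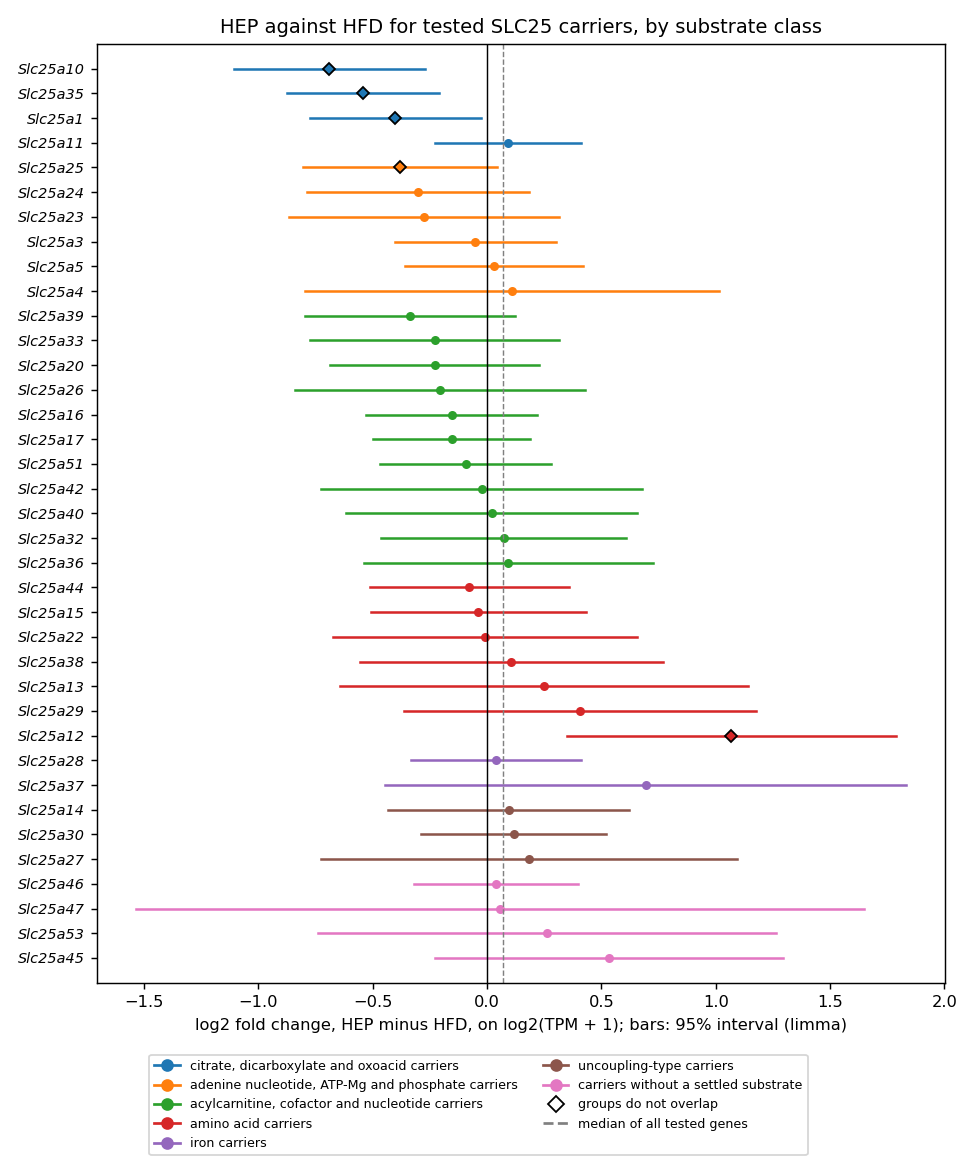
log2 fold change of 37 of the tested carriers, HEP minus HFD on log2(TPM + 1), with its 95% interval from limma, coloured by substrate class. Outlined diamonds mark the 5 carriers whose groups do not overlap, from Slc25a10 at -0.69 to Slc25a12 at 1.07, and the dashed line is the median of all tested genes at 0.07.

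Among the carriers of citrate, dicarboxylates and oxoacids, Slc25a10, Slc25a35 and Slc25a1 had lower values in every HEP library than in any HFD library. Slc25a11, Slc25a34 and Slc25a21 had higher HEP means, at 54.03, 0.41 and 0.27 TPM in HEP, against 50.71, 0.32 and 0.04 TPM in HFD. The summed TPM of the 6 was 257.8, 326.8 and 281.7 in HEP replicates 1 to 3, against 368.6, 386.8 and 382.4 in HFD replicates 1 to 3, without overlap. The 6 made up 15.3%, 17.9% and 18.6% of the family in HEP and 21.2%, 21.6% and 21.3% in HFD. Slc25a1 and Slc25a10 supplied most of the sum in every library. Its lack of overlap therefore follows largely from theirs and is no separate result for the class. Of the 6 members 4 were tested, and 3 of these had lower HEP values without overlap, as did 3.58% of all tested genes, while 0 passed the adjusted test. The class was named from these genes' known or likely substrates with earlier results in view, and it holds Slc25a35, whose substrate is not settled. The 3.58% is therefore given for scale and is no test of the class. The sums are not scaled by the adipocyte markers, and on that scale Slc25a10, Slc25a35 and Slc25a1 each overlapped between the groups.

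Slc25a10 exchanges malate or succinate for phosphate across the inner membrane. It had 56.27, 73.41 and 53.61 TPM in HEP, against 99.25, 108.86 and 87.89 TPM in HFD. Every HEP library was below every HFD library, and HEP replicate 2 was the nearest to HFD. The means were 61.1 ± 10.75 TPM in HEP and 98.67 ± 10.5 TPM in HFD (SD, n = 3 each), a difference of -38.1% relative to HFD. Its log2 fold change was -0.69 ± 0.17 (SE, 95% interval -1.11 to -0.27), at a limma p of 0.00648 unadjusted and 0.879 after adjustment. Slc25a10 shares 228 exon bases with the antisense transcript Gm11788 in GENCODE release M21, and the labels do not say whether the library kept strand.

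Slc25a35, placed beside the dicarboxylate carriers by sequence and without a settled substrate, had 13.06, 13.31 and 12.6 TPM in HEP, against 19.67, 19.43 and 19.07 TPM in HFD. Its replicates lay close together in both groups, with means of 12.99 ± 0.36 TPM in HEP and 19.39 ± 0.30 TPM in HFD (SD, n = 3 each). The log2 fold change was -0.54 ± 0.14 (SE, 95% interval -0.88 to -0.21), at a limma p of 0.00671 unadjusted and 0.879 after adjustment. Limma moderates each gene's spread toward that of genes of like level, so the evenness of these 6 values enters its p only in part. Slc25a35 shares 1151 exon bases with Rangrf on the opposite strand, and without strand reads of this stretch cannot be told apart. Rangrf, a Ran-binding trafficking factor, had 10.13, 14.61 and 8.43 TPM in HEP and 7.63, 10.26 and 7.98 TPM in HFD, with overlap and a higher mean in HEP.

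Slc25a1, the citrate carrier, had 135, 182.54 and 162.35 TPM in HEP, against 203.4, 206.31 and 220.72 TPM in HFD. Again no HEP library reached the lowest HFD library. It averaged 160 ± 23.86 TPM in HEP and 210.1 ± 9.28 TPM in HFD (SD, n = 3 each), a difference of -23.9% relative to HFD. On the log2 scale the difference was -0.40 ± 0.16 (SE, 95% interval -0.78 to -0.03), at a limma p of 0.039 unadjusted and 0.879 after adjustment. The remaining tested member, Slc25a11, which exchanges 2-oxoglutarate for malate, had 53.01, 56.4 and 52.67 TPM in HEP and 45.72, 51.77 and 54.64 TPM in HFD, with overlap. Its log2 fold change was 0.09 with a 95% interval from -0.23 to 0.41. Slc25a21, the oxodicarboxylate carrier, and Slc25a34 were under 1 TPM in every library and were not tested.

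All 12 adipocyte markers had lower means in HEP, as these carriers did. The geometric mean of the markers was 774, 1060 and 588 TPM in HEP replicates 1 to 3. In HFD replicates 1 to 3 it was 1100, 1180 and 866 TPM. Within each group Slc25a10 had the order of this mean and Slc25a35 varied little. Slc25a1 did not have that order, and in HFD it was highest in replicate 3, where the mean was lowest. The carrier values were also expressed per 1000 TPM of this geometric mean. On that scale Slc25a10 was 72.7, 69.3 and 91.2 in HEP, against 90.1, 92.2 and 102 in HFD, and the groups overlapped. Slc25a35 was 16.9, 12.6 and 21.4 in HEP, against 17.9, 16.5 and 22.0 in HFD, also with overlap. Slc25a1 was 174, 172 and 276 in HEP, against 185, 175 and 255 in HFD, and its log2 fold change was 0.00 with this scaling, against -0.40 without it. For Slc25a10 and Slc25a35 it was -0.29 and -0.16. With the B cell marker mean as a covariate the log2 fold changes were -0.55 for Slc25a10, -0.53 for Slc25a35 and -0.35 for Slc25a1. Within the 3 libraries low in B cell genes, where HEP is replicate 2 alone, they were -0.50, -0.52 and -0.17, and within the 3 rich libraries, where HFD is replicate 3 alone, they were -0.67, -0.54 and -0.57.

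**Figure D3:**
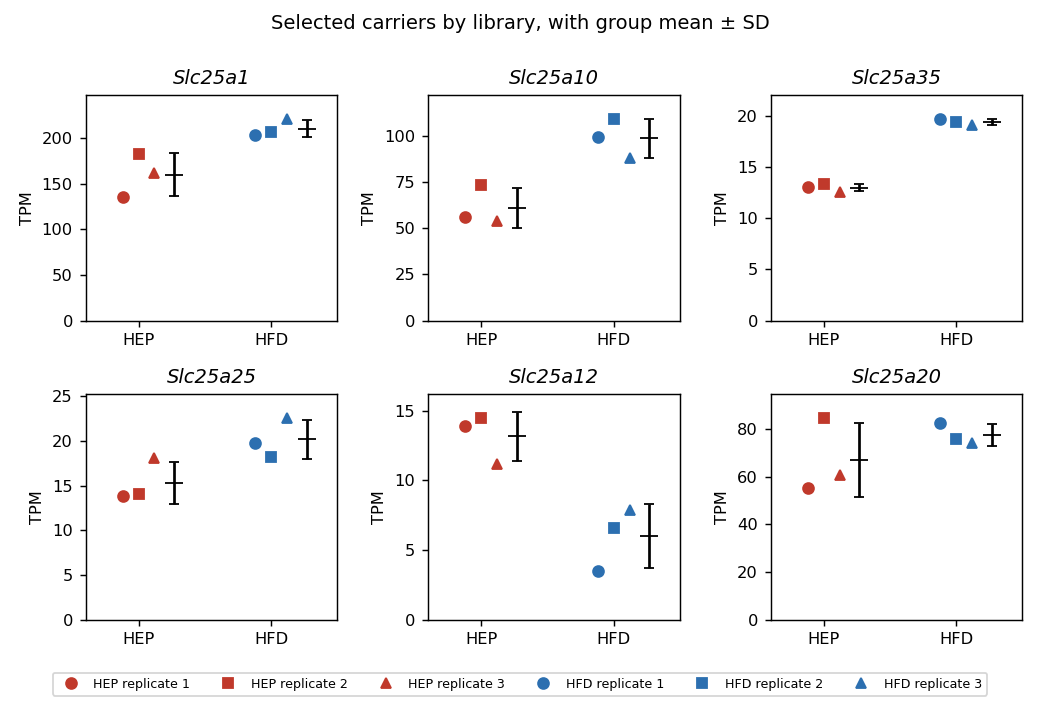
TPM of 6 carriers in each library, with HEP left of HFD, 1 marker shape per replicate number and the group mean ± SD (n = 3) in black. Slc25a1, Slc25a10, Slc25a35 and Slc25a25 lie lower in every HEP library, Slc25a12 lies higher in every HEP library, and Slc25a20 overlaps.

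The cytosolic and mitochondrial enzymes that work with citrate and malate carriers had lower means in HEP as well. All 8 listed genes were lower, by a median log2 fold change of -0.27, beside 0.07 for all tested genes, and 0 of 8 passed the adjusted limma test. The 12 adipocyte markers were all lower too, by a median of -0.41. With adipocyte scaling the median over all 62 tested partner genes was 0.27, beside 0.43 for all tested genes. The part of fat cell content in the values of these 8 genes was not tested. Mdh1, the cytosolic malate dehydrogenase, had 301.04, 344.69 and 263.12 TPM in HEP, against 388.53, 428.18 and 378.3 TPM in HFD. Me1, the malic enzyme that yields NADPH in the cytosol, had 122.13, 179.18 and 136.85 TPM in HEP, against 193.67, 217.13 and 185.78 TPM in HFD. Neither gene's groups overlapped, and their log2 fold changes were -0.40 and -0.46, each with an adjusted p of 0.879 in limma. Acly, which splits exported citrate and is named after its values were seen, had 59.57, 38.31 and 57.37 TPM in HEP and 42.23, 62.31 and 56.16 TPM in HFD, with full overlap.

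The amino acid carriers included the single tested member with HEP values above HFD throughout. Slc25a12, the calcium-sensitive aspartate/glutamate carrier also called Aralar, had 13.86, 14.44 and 11.15 TPM in HEP, against 3.47, 6.6 and 7.9 TPM in HFD. The lowest HEP library exceeded the highest HFD library, and the HEP libraries were the more even. The means were 13.15 ± 1.76 TPM in HEP and 5.99 ± 2.28 TPM in HFD (SD, n = 3 each), 120% higher in HEP. The difference on the log2 scale was 1.07 ± 0.30 (SE, 95% interval 0.35 to 1.79), at a limma p of 0.0106 unadjusted and 0.879 after adjustment. Skeletal muscle expresses this carrier strongly. The muscle markers summed to 1730, 15190 and 53.81 TPM in HEP replicates 1 to 3, where Slc25a12 was 13.86, 14.44 and 11.15 TPM. In HFD replicates 1 to 3 the markers summed to 199.6, 737.1 and 85.2 TPM. The part of muscle in the Slc25a12 values was not tested. Per 1000 TPM of the adipocyte geometric mean Slc25a12 was 17.9, 13.6 and 19.0 in HEP, against 3.15, 5.59 and 9.12 in HFD, again without overlap. The log2 fold change of Slc25a12 was 1.00 without HEP replicate 2 and 0.78 without HFD replicate 1, and it was 1.41 within the libraries low in B cell genes and 0.59 within the rich.

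Slc25a13, the second aspartate/glutamate carrier, known as citrin, was far less abundant, with 1.02, 3.31 and 1.57 TPM in HEP and 1.77, 1.48 and 0.94 TPM in HFD. Slc25a12 therefore made up most of the transcripts of the pair, 93.1%, 81.4% and 87.7% in HEP and 66.2%, 81.7% and 89.4% in HFD. The difference in this share, 8.29 percentage points higher in HEP, gave a two-sided exact permutation p of 0.50, adjusted over 4 such shares 0.67. With 3 samples against 3 this test cannot give a p under 0.1.

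The aspartate/glutamate carriers take part in the malate-aspartate shuttle, which carries reducing equivalents of cytosolic NADH into the matrix. Of the 6 listed genes of the NADH shuttles 3 were higher and 3 lower, by a median of 0.05, and 0 passed the adjusted limma test. Got1, the cytosolic aspartate aminotransferase, had 10.84, 12.64 and 11.48 TPM in HEP, against 5.95, 8.4 and 10.11 TPM in HFD, without overlap. Got1 differed by 0.49 ± 0.22 on the log2 scale (SE), at a limma p of 0.0684 unadjusted and 0.879 after adjustment. Gpd2, the mitochondrial glycerol-phosphate dehydrogenase, is named after its values were seen and had 13.1, 13.11 and 11.19 TPM in HEP, against 9.24, 10.32 and 10.25 TPM in HFD. Among the 3 lower genes, Mdh2 and Gpd1 are likewise named after their values were seen. The malate dehydrogenases Mdh1 and Mdh2 and the cytosolic Gpd1 had lower means in HEP, with log2 fold changes of -0.40, -0.23 and -0.20.

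The other amino acid carriers overlapped between the diets. Of the 10 members 7 were tested, with 4 higher and 3 lower in HEP. Slc25a22, a glutamate carrier, averaged 25.78 ± 6.31 TPM in HEP and 26.13 ± 7.87 TPM in HFD (SD, n = 3 each). Slc25a44, which carries branched-chain amino acids, averaged 19.77 ± 2.97 TPM in HEP and 20.89 ± 2.67 TPM in HFD, and its log2 fold change of -0.08 had a 95% interval from -0.51 to 0.36. Slc25a38, a glycine carrier needed for haem synthesis, averaged 15.28 ± 5.59 TPM in HEP and 13.63 ± 1.73 TPM in HFD, and was highest in HEP replicate 1 at 21.43 TPM. Slc25a15, the ornithine carrier, averaged 6.23 ± 1.04 TPM in HEP and 6.37 ± 0.21 TPM in HFD. Slc25a29, a carrier of basic amino acids, averaged 2.64 ± 0.87 TPM in HEP and 1.74 ± 0.65 TPM in HFD. Slc25a2, Slc25a18 and Slc25a48 stayed under 1 TPM in every library and were not tested, although Slc25a2 had 0.24, 0.27 and 0.16 TPM in HEP, above 0.11, 0.11 and 0.06 TPM in HFD. The 7 listed genes of branched-chain amino acid breakdown encode enzymes of that pathway and their regulators. Of these 6 had a negative log2 fold change and 0 passed. Their median was -0.28, beside -0.41 for the adipocyte markers. Dld, a dehydrogenase subunit, had 102.45, 105.59 and 98.61 TPM in HEP, against 133.15, 131.64 and 115.23 TPM in HFD, and Dbt, a subunit of the branched-chain complex, had 38.27, 36.57 and 30.8 TPM in HEP, against 44.84, 46.61 and 39.17 TPM in HFD, both without overlap.

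The carriers of adenine nucleotides and phosphate were the bulk of the family, between 48.2% and 50.6% of its TPM in HEP and between 44.4% and 48.0% in HFD. Slc25a3, the phosphate carrier, was the most abundant carrier by its mean and one of the steadiest, with 366.97, 323.37 and 287.13 TPM in HEP and 334.12, 328.35 and 345.35 TPM in HFD. Slc25a5, the ADP/ATP carrier ANT2 of most dividing and nonmuscle cells, had 268.27, 264.73 and 300.15 TPM in HEP and 237.53, 263.27 and 319.33 TPM in HFD. The 95% intervals of their log2 fold changes ran from -0.40 to 0.30 for Slc25a3 and from -0.36 to 0.42 for Slc25a5, so moderate differences in either direction are not excluded by these data.

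Slc25a4, the ADP/ATP carrier ANT1 of heart and skeletal muscle, had 123.99, 274.24 and 99.78 TPM in HEP and 132.21, 155.58 and 131.89 TPM in HFD. A single library set its HEP mean: HEP replicate 2, with 274.24 TPM, was also the library with 15190 TPM of the muscle markers, all of them above 1 TPM but 1. The log2 fold change was 0.11 with that library and -0.32 without it. HEP replicate 1 was second in muscle markers, at 1730 TPM, but its 123.99 TPM of Slc25a4 lay below every HFD library. The part of muscle in these values was not tested. Slc25a4 made up 31.6%, 50.9% and 24.9% of the Slc25a4 and Slc25a5 sum in HEP, against 35.8%, 37.1% and 29.2% in HFD. The difference was 1.77 percentage points (two-sided exact permutation p = 0.90, also after adjustment), and it was -5.76 percentage points without HEP replicate 2. Slc25a31, the germ-cell ADP/ATP carrier, was at or below 0.24 TPM in every library.

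The calcium-regulated ATP-Mg/phosphate carriers Slc25a23, Slc25a24 and Slc25a25, which adjust the adenine nucleotide pool of the matrix, had lower HEP means. Slc25a25 had 13.88, 14.02 and 18.07 TPM in HEP, against 19.79, 18.25 and 22.53 TPM in HFD, without overlap but with HEP replicate 3 only just under HFD replicate 2. Its log2 fold change was -0.38 ± 0.18 (SE, 95% interval -0.81 to 0.04) with an unadjusted limma p of 0.0712. It shares 379 exon bases with Naif1 on the opposite strand, whose TPM was 2.2, 1.79 and 2.26 in HEP and 1.85, 1.83 and 2.86 in HFD. With adipocyte scaling the log2 fold change of Slc25a25 was 0.01. Slc25a24 averaged 13.49 ± 0.90 TPM in HEP and 17.11 ± 3.91 TPM in HFD, and Slc25a23 averaged 26.92 ± 8.10 TPM in HEP and 32.04 ± 4.21 TPM in HFD (SD, n = 3 each), each with overlap. Their relative Slc25a41 was listed at 0 in all HEP libraries and at 0.06 TPM in HFD replicate 2 alone. Of 4 genes of the outer membrane channel and the permeability pore, 3 had a negative log2 fold change, with a median of -0.06 for the 4. Vdac2, a channel of the outer membrane, averaged 155.6 ± 17.71 TPM in HEP and 166.4 ± 15.53 TPM in HFD. Ppif, the matrix cyclophilin, averaged 12.1 ± 2.37 TPM in HEP and 9.87 ± 2.38 TPM in HFD.

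**Figure D4:**
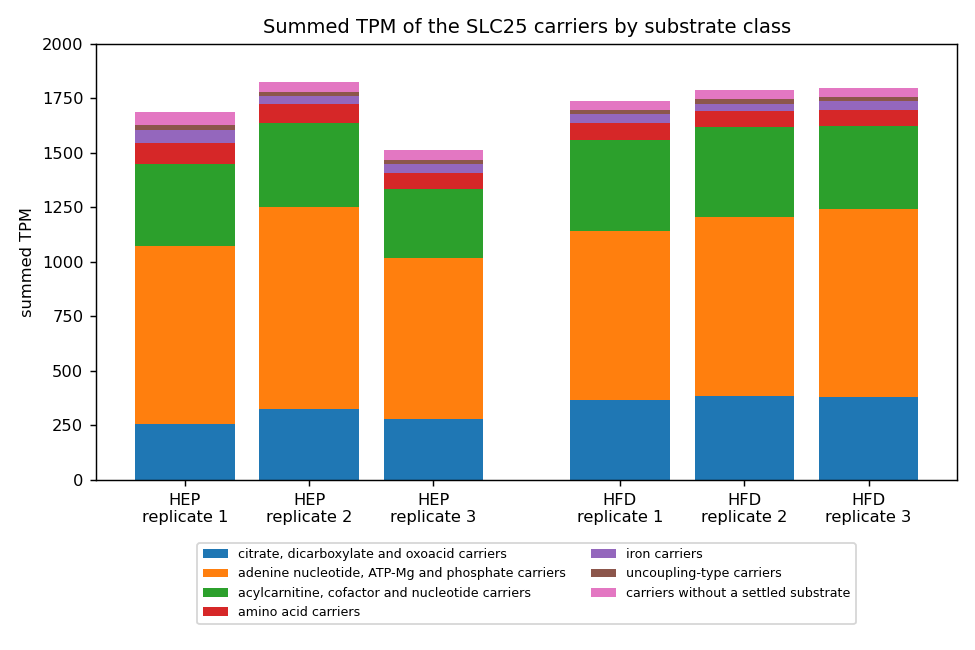
Summed TPM of the carriers in each library, stacked by substrate class, with HEP bars left of HFD bars. The citrate, dicarboxylate and oxoacid block is smaller in the 3 HEP libraries (257.8 to 326.8 TPM) than in the 3 HFD libraries (368.6 to 386.8 TPM), and the whole bars overlap. Slc25a1 and Slc25a10 supply most of that block, so its difference largely repeats theirs. The classes were named with earlier results in view, and the sums are not scaled by the adipocyte markers.

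Slc25a20 brings acylcarnitines into the matrix for fatty acid oxidation. It had 55.32, 84.49 and 60.88 TPM in HEP, against 82.67, 75.64 and 74.01 TPM in HFD. HEP replicates 1 and 3 lay below every HFD library, while HEP replicate 2 was the highest of the 6. The log2 fold change was -0.23 ± 0.19 (SE, 95% interval -0.69 to 0.23), with an adjusted limma p of 0.879. It was -0.41 without HEP replicate 2 and 0.17 with adipocyte scaling. The 6 genes of the carnitine shuttle were split, 4 higher and 2 lower in HEP with a median of 0.06, and 0 passed. Crat, carnitine acetyltransferase, averaged 73.27 ± 17.89 TPM in HEP and 90.91 ± 14.46 TPM in HFD, and Cpt2, the inner carnitine palmitoyltransferase, averaged 50.91 ± 13.68 TPM in HEP and 59.34 ± 8.38 TPM in HFD (SD, n = 3 each), with overlap in both.

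Among the carriers of cofactors and nucleotides, 9 of the 12 tested, Slc25a20 included, had a negative log2 fold change, the median was -0.15, and all 12 overlapped. Slc25a39, a carrier needed for mitochondrial glutathione, had 50.14, 67.98 and 45.09 TPM in HEP, against 68.22, 74.55 and 61.56 TPM in HFD. HEP replicates 1 and 3 were below all HFD libraries, and the log2 fold change was -0.34 (95% interval -0.80 to 0.12). Its relative Slc25a40 had 10.95, 5.46 and 8.09 TPM in HEP and 7.7, 7.25 and 8.38 TPM in HFD. Slc25a39 thus made up 82.1%, 92.6% and 84.8% of the pair in HEP, against 89.9%, 91.1% and 88.0% in HFD, a difference of -3.19 percentage points for which the two-sided exact permutation p was 0.40, adjusted 0.67. Of 8 glutathione genes 6 had a negative log2 fold change, and the median was -0.18. Gss, glutathione synthetase, averaged 13.97 ± 3.63 TPM in HEP and 19.23 ± 1.47 TPM in HFD, and Glrx5, a mitochondrial glutaredoxin of iron-sulphur cluster assembly, averaged 45.8 ± 16.92 TPM in HEP and 61.67 ± 6.95 TPM in HFD (SD, n = 3 each), both with overlap.

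Slc25a17, a carrier of the peroxisomal membrane and not of mitochondria, averaged 40.34 ± 3.21 TPM in HEP and 45.04 ± 4.15 TPM in HFD. Slc25a51, the mitochondrial NAD carrier, averaged 37.42 ± 5.07 TPM in HEP and 39.89 ± 3.28 TPM in HFD (SD, n = 3 each). Both overlapped between the diets. Slc25a36 and Slc25a33, pyrimidine nucleotide carriers, averaged 32.7 ± 10.9 and 6.08 ± 1.19 TPM in HEP and 29.63 ± 3.39 and 7.27 ± 1.14 TPM in HFD. Slc25a26, which imports S-adenosylmethionine, averaged 11.2 ± 3.84 TPM in HEP and 12.65 ± 1.29 TPM in HFD. Slc25a16 and Slc25a42, both linked to coenzyme A, averaged 24.43 ± 3.03 and 8.84 ± 3.05 TPM in HEP and 27.21 ± 1.79 and 8.69 ± 1.32 TPM in HFD. The 8 coenzyme A synthesis genes had 3 positive and 5 negative log2 fold changes with a median of -0.05, and those with the smallest p were Coasy, at 20.57 ± 2.81 TPM in HEP and 24.67 ± 2.73 TPM in HFD, and Pank3, at 75.63 ± 9.62 TPM in HEP and 95.14 ± 23.64 TPM in HFD. Slc25a32, which carries folate or flavin, averaged 8.86 ± 1.63 TPM in HEP and 8.38 ± 1.52 TPM in HFD. All 4 mitochondrial folate genes had a higher HEP mean, by a median of 0.58, with overlap and 0 calls. Shmt2, a serine hydroxymethyltransferase, had 24.88, 13.41 and 18.98 TPM in HEP and 10.39, 12.73 and 17.68 TPM in HFD, and Mthfd2, a folate dehydrogenase of growing cells, had 14.14, 3.13 and 15.76 TPM in HEP and 2.66, 4.24 and 11.63 TPM in HFD. Both were highest in the same 3 libraries as the B cell markers, and the part of those cells was not tested.

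The iron carriers are mitoferrin 1, Slc25a37, known from developing red cells, and mitoferrin 2, Slc25a28, of most other tissues. Slc25a37 had 24.6, 6.78 and 16.75 TPM in HEP and 9.25, 5.83 and 10.95 TPM in HFD. Its highest 3 libraries, HEP replicates 1 and 3 and HFD replicate 3, were the 3 with 581.5 to 1265 TPM of B cell markers. The log2 fold change of Slc25a37 was 0.69 (95% interval -0.45 to 1.83). It was -0.10 without these 3 libraries, where HEP is replicate 2 alone. Within the 3 rich libraries, where HFD is replicate 3 alone, it was 0.83. The part of lymphocytes in these values was not tested. Slc25a28 was even, with 34.11, 30.05 and 25.59 TPM in HEP and 29.35, 28.73 and 28.71 TPM in HFD. Slc25a37 made up 41.9%, 18.4% and 39.6% of the pair in HEP, against 24.0%, 16.9% and 27.6% in HFD, a difference of 10.5 percentage points for which the two-sided exact permutation p was 0.30, adjusted 0.67. Of 7 genes of iron and haem handling 2 were higher and 5 lower by a median of -0.07.

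Slc25a45, Slc25a46, Slc25a47 and Slc25a53, also without a settled substrate but placed outside the class of Slc25a35, overlapped between the diets. Slc25a47, known mainly from liver, had 2.62, 11.69 and 1.67 TPM in HEP and 7.12, 3.04 and 2.33 TPM in HFD, and its 2 highest libraries, HEP replicate 2 and HFD replicate 1, were those with 2619 and 1713 TPM of liver markers. The log2 fold change of Slc25a47, 0.06, had a 95% interval from -1.54 to 1.65. Slc25a45 had 15.75, 7.27 and 12.54 TPM in HEP and 6.13, 7.17 and 9.64 TPM in HFD, and Slc25a53 had 11.28, 3.45 and 10.02 TPM in HEP and 5.17, 6.13 and 6.97 TPM in HFD. Both were highest in the 3 libraries rich in B cell markers. Without the 3 rich libraries the log2 fold change of Slc25a53 was -0.58, against 0.26 with them. The part of these cells in the values was not tested. Slc25a46, an outer membrane member of the family, was among the steadiest, at 24.23 ± 2.73 TPM in HEP and 23.49 ± 1.16 TPM in HFD. Slc25a43 stayed under 1 TPM, and Slc25a54 was listed at 0 in all 6 libraries.

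**Figure D5:**
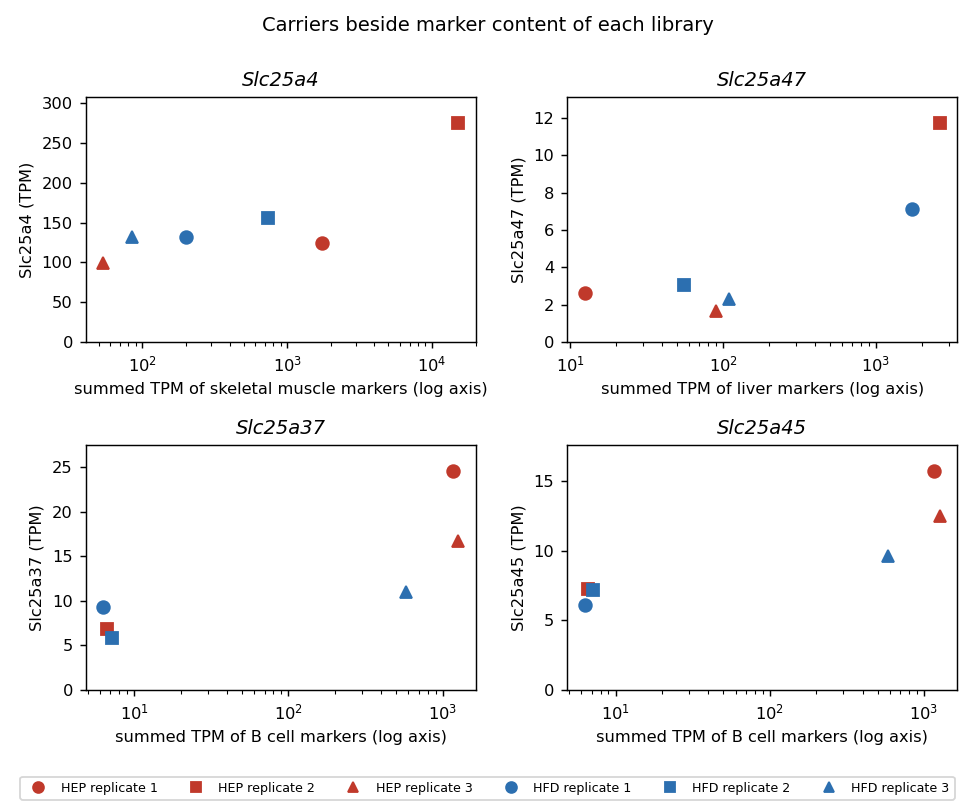
TPM of 4 carriers plotted against the summed TPM (log axis) of skeletal muscle, liver or B cell markers in the same library, HEP in red and HFD in blue. Slc25a4 reaches 274.24 TPM in the library with 15190 TPM of muscle markers, and is 123.99 TPM in the library with 1730 TPM of them. Slc25a47 is highest in the 2 libraries with 2619 and 1713 TPM of liver markers. Slc25a37 and Slc25a45 are highest in the 3 libraries rich in B cell markers.

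The uncoupling-type carriers with SLC25 numbers were low and similar on both diets. Slc25a30 averaged 13.14 ± 1.47 TPM in HEP and 12.03 ± 1.11 TPM in HFD, Slc25a14 averaged 5.68 ± 1.34 TPM in HEP and 5.19 ± 0.20 TPM in HFD, and Slc25a27 averaged 1.77 ± 1.02 TPM in HEP and 1.39 ± 0.67 TPM in HFD (SD, n = 3 each). Genes of the family whose symbols hold no SLC25 number were listed apart. Among them Ucp1, the heat-producing uncoupling protein of brown fat, was under the filter for testing. It had 0.05, 0.17 and 0.21 TPM in HEP and 0.51, 1.73 and 0.19 TPM in HFD. Ucp2, which is common in immune cells, had 351.55, 170.02 and 345.99 TPM in HEP and 101.28, 242.4 and 244.64 TPM in HFD. Its highest values were in the 3 libraries rich in B cell markers. HFD replicate 2, with only 7.15 TPM of those markers, came close to HFD replicate 3. The part of immune cells in these values was not tested. The 2 Ucp genes are named after their values were seen. The same list also held Mpc1 and Mpc2, mitochondrial pyruvate carriers of a separate protein family. They are likewise named after their values were seen, and their log2 fold changes were -0.30 and -0.37. Of the 6 tested genes of the list 4 had a negative log2 fold change, the median was -0.29, and 0 passed. The 4 were Mpc1, Mpc2, Mtch1 and Mtch2. Mtch1 and Mtch2, carrier homologues of the outer membrane, averaged 134.8 ± 17.33 and 116.7 ± 29.3 TPM in HEP and 163.0 ± 15.15 and 147.2 ± 16.92 TPM in HFD.

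Over the 38 tested carriers the lowest of the 6 libraries was HEP replicate 3 for 20 carriers (52.6%, against 28.1% of all tested genes), and it was the highest for 0 of 38, where it was the highest for 10.5% of all tested genes. HEP replicate 1 was the highest for 15 carriers (39.5%, against 41.4% of all tested genes) and HEP replicate 2 for 10 (26.3%, against 12.3%). HEP replicate 3 also had the lowest adipocyte marker sum, 29710 TPM. Over the 62 tested partner genes of the carriers, 40 (64.5%, against 41.4% of all tested genes) had a negative log2 fold change, and the median was -0.13. That median was 0.27 with adipocyte scaling, 0.05 without the libraries rich in B cell genes and -0.02 without HEP replicate 3. Of the 62, 2 reached an unadjusted limma p under 0.05, both lower in HEP, where 1.81% of all tested genes did so in either direction, and 0 passed the adjusted test.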

How the data were processed

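RNA sequencing of 6 libraries was deposited as a table of TPM values per gene and library, made by the authors, beside the authors' mean TPM per group. Per the labels' protocols, libraries came from TRIzol RNA and a TruSeq kit. Per the submitters' processing notes, the tools were fastp, HISAT2, RSEM, StringTie and DESeq2, named with neither version nor role. Build and annotation are not given in the sources used. TPM columns summed to between 999999.7 and 1000000.7, so a rise of abundant transcripts lowers all other values in a library, and no counting interval can be given.

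Genes averaging 1 TPM or more were tested in limma 3.58.1 (R 4.3.3) on log2(TPM + 1) with an intensity trend and Benjamini-Hochberg adjustment over all 15446 tested genes, two-sided, threshold 0.05. Fold changes on this scale understate those of low genes. Shares of 4 pairs were compared by two-sided exact permutation tests. Samples were grouped by title. Overlaps of exons came from GENCODE release M21, where all 47 members were found, and promoters from RefSeq. Of the listed markers, Cd247 is not used here. Some genes are not reported here by name.

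Values per library are given for Slc25a1, Slc25a10, Slc25a35 and Slc25a20 and for those of the 8 most abundant members reported by name. They are also given for the tested members whose groups did not overlap, the 6 with the widest range and 4 pairs. The 2 genes with the smallest p per partner list are given per library or as mean ± SD. The iron and haem list is given by counts and median only. Members and lists were chosen with earlier results of these data known. Alternatives were other pseudocounts, filters and scalings, a replicate block, a B cell covariate and leaving out libraries.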

Additional observations from a re-analysis of the deposited data

How the results depend on the processing

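No carrier and no partner gene passed at an adjusted limma p of 0.05 in any of the alternatives run, which comprised a pseudocount of 0.1, 2 other filters, 3 scalings, the replicate block, the B cell covariate, both subsets by B cell content and each library left out. The smallest adjusted p of a carrier was 0.207, without HEP replicate 2, and the largest such minimum was 1. In the main fit 4 carriers had an unadjusted p under 0.05. Whether equal replicate numbers pair the libraries is not known. The correlations of same-numbered deviations were -0.35, 0.37 and 0.65, which do not settle it. With the replicate block 0 carriers passed and 19 of 38 were lower, as without it. The number of carriers lower in HEP was 2 and their median 0.37 with adipocyte scaling, which moved the median of all tested genes to 0.43. Leaving out 1 library moved the number between 14 and 28 and the median between -0.11 and 0.07. Of 270 values of the 17 named carriers under alternatives, 236 kept their sign. Slc25a10, Slc25a35, Slc25a12 and Slc25a45 kept it in every alternative run. The sign turned with adipocyte scaling for Slc25a1 (0.00), Slc25a20 (0.17), Slc25a3 (0.36), Slc25a39 (0.07) and Slc25a25 (0.01), with median-of-ratios scaling for Slc25a5 (-0.01), Slc25a28 (0.00) and Slc25a40 (-0.02), and with quantile normalization for Slc25a3 (0.00), Slc25a47 (-0.16), Slc25a28 (-0.07) and Slc25a40 (-0.15). It turned with the B cell covariate for Slc25a5 (-0.06), Slc25a53 (-0.11) and Slc25a40 (-0.17), without the libraries rich in B cell genes for Slc25a20 (0.09), Slc25a37 (-0.10), Slc25a53 (-0.58) and Slc25a40 (-0.39), and without the low ones for Slc25a5 (-0.17), Slc25a4 (-0.24) and Slc25a47 (-0.10). Leaving out 1 library gave ranges that crossed 0 for Slc25a3 (-0.14 to 0.04), Slc25a5 (-0.06 to 0.15), Slc25a4 (-0.32 to 0.40), Slc25a47 (-0.62 to 0.50), Slc25a53 (-0.01 to 0.72), Slc25a13 (-0.06 to 0.49), Slc25a28 (-0.06 to 0.14) and Slc25a40 (-0.19 to 0.25), and for the Slc25a4 share of its pair (-5.76 to 7.20 percentage points). In the subsets and where a library is left out, an arm can hold 1 or 2 libraries, and a lone library is assumed to vary like the others. Why these values moved was not tested beyond what the alternatives themselves change.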
